A study of Mus musculus with 2 samples.

Results

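The genes described here encode the cytosolic sulfotransferases of families Sult1, Sult2, Sult3 and Sult5, the UDP-glucuronosyltransferases and related UDP-glycosyltransferases of families Ugt1a, Ugt2a, Ugt2b and Ugt3a, and 3 enzymes that make their donor molecules, Ugdh, Papss1 and Papss2. These genes were chosen with earlier results of these data known, and their probe sets were then taken by the gene symbol of the array's annotation. This gave 31 of the 22690 probe sets on the array: 27 that name a single gene, covering 21 of the 12393 genes named that way, and 4 that name several genes and are kept apart. Of the 27, 20 probe sets of 15 genes reached a signal of 80 on at least 1 array and are called measured. The other 7 were dimmer on both arrays.

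Liver RNA was read on 2 Affymetrix arrays, 1 per diet, from female mice of 2 months on a C57BL/6J background, all homozygous for a disrupted apolipoprotein E gene, apoE KO. The study had 12 mice, 6 per diet, which for 4 weeks ate chow mixed with olive oil at 10% (w/w), or with maslinic acid-enriched olive oil at the same 10%. Maslinic acid is a pentacyclic triterpene of olives. The sources used here do not give whether an array held RNA of 1 mouse or of a pool. The diets are called OO and MAOO, as in the study, and the arrays are named by their labels. With 1 array per diet no difference has a replicate check, a standard error or a p-value. Differences are therefore described by size, and the log2 ratio is that of the MAOO-labelled array over the OO-labelled array, after signals under 40 were raised to 40.

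Sulfotransferases move a sulfonate group from PAPS, the activated form of sulfate, to hydroxyl or amino groups of steroids, bile acids, thyroid hormones, catecholamines and drugs. UDP-glucuronosyltransferases sit in the membrane of the endoplasmic reticulum and add glucuronic acid from UDP-glucuronic acid to bilirubin, steroids, bile acids and drugs. Both reactions make lipophilic compounds soluble enough for export into bile or urine, and the liver is their main site. In mouse liver, Sult2a and Sult3a1 transcripts are known to be far more abundant in females than in males.

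The targeted gene, Apoe, read 407.7 on the OO-labelled array and 7630 on the MAOO-labelled array, although both are labelled as knockouts. The second value goes against the label; where the probes lie on the gene is not known here. For this reason every direction below is between the arrays as labelled. The liver label was checked against cell type markers. The 9 measured markers of hepatocytes had signals summing to 78689 and 69979 on the OO-labelled and MAOO-labelled arrays, with 9 of 9 lower on the latter and a median log2 ratio of -0.18. In such bulk RNA, fewer cells of a type and less RNA per cell cannot be told apart. Whether the scaling of bright probe sets had a part in this was not tested for the markers. The 5 cholangiocyte markers Krt7, Krt19, Epcam, Sox9 and Cftr and the 4 kidney tubule markers read at most 34.4 on either array. The remaining cholangiocyte marker on the array, Aqp1, which endothelial cells also express, read 427.8 and 357.5. Some markers of other tissues were measured too. The enterocyte marker Fabp2 read 1407.2 and 1320.2, the exocrine pancreas marker Cela1 334.3 and 229.8, and the adipocyte marker Fabp4 263.9 and 355.6. Other markers of these lists on the array stayed under the minimum signal.

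Of the 20 measured probe sets, 1 was at least 1.5-fold higher on the MAOO-labelled array, that of Sult2a2, against 1.77% of all 8525 measured probe sets naming a single gene. None was at least 1.5-fold lower, against 1.89% of all. The other 19 lay within 1.3-fold, as did 89.4% of all measured probe sets, and their log2 ratios ran from -0.083 to 0.31. At the deposited scaling the 20 split evenly, 10 higher and 10 lower. Their median log2 ratio was 0.028, beside -0.0036 over all measured probe sets. Probe sets of a single gene give the only repeat measurement here, a technical one, and their log2 ratios had an SD of 0.23 within a gene over 1815 genes. The difference of Sult2a2 exceeded that SD. Among the 19 others, the Papss2 probe set that read 190.3 and 235.3 also exceeded it, with 0.31, but the other measured probe sets of Papss2 did not.

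**Figure D1:**
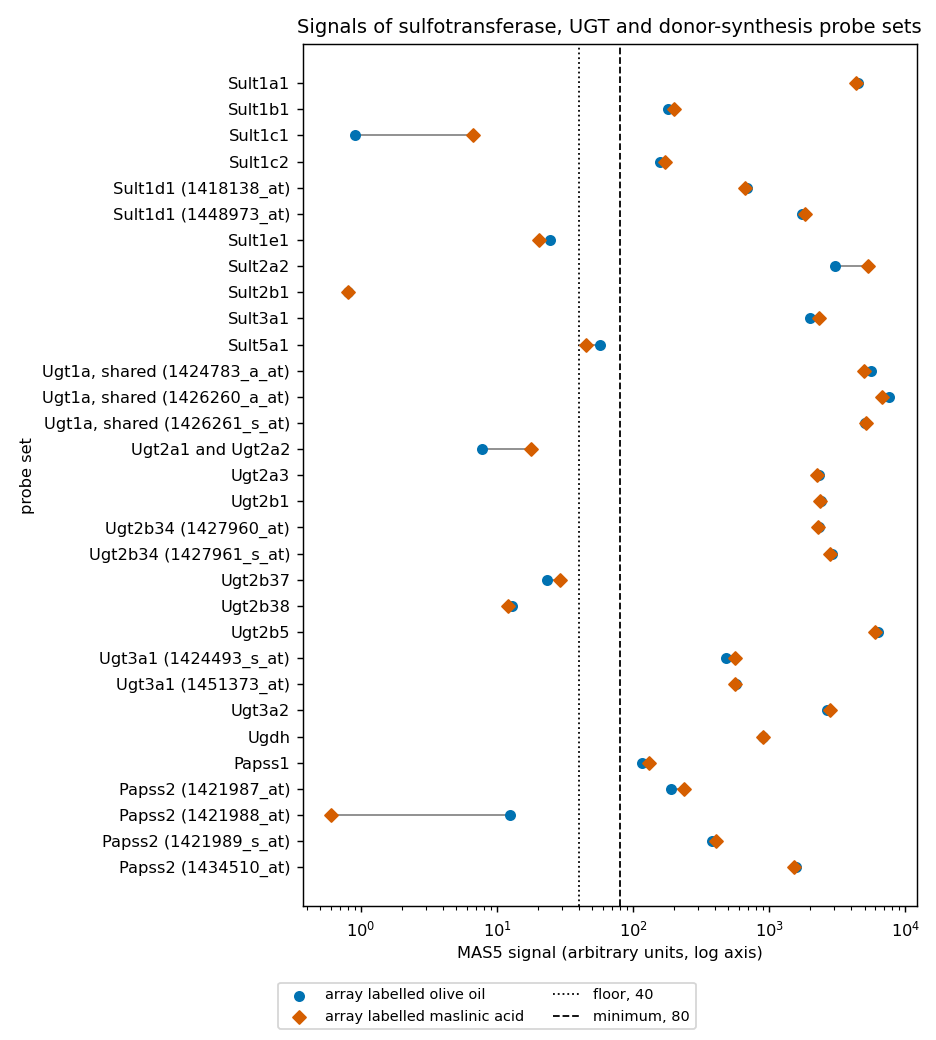
MAS5 signal on a log axis for each of the 31 probe sets, with a circle for the OO-labelled array and a diamond for the MAOO-labelled array, joined by a line; dotted and dashed lines mark the floor of 40 and the minimum of 80. The pairs nearly coincide for the measured probe sets except Sult2a2, which read 3059.5 and 5268.4. Signals of different probe sets are not on a common scale, and the wide gaps at the left lie under the floor.

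Sult2a2 encodes a hydroxysteroid sulfotransferase, of the subfamily that acts on dehydroepiandrosterone and bile acids. Its single probe set read 3059.5 on the OO-labelled array and 5268.4 on the MAOO-labelled array, 1.72-fold higher, a log2 ratio of 0.78. This was a strong signal on both arrays, well clear of the floor. Of the 1288 measured probe sets with a mean signal of at least 1000, 12 were at least 1.5-fold higher (0.932%), 5 were at least 1.5-fold lower (0.388%), and 96.5% lay within 1.3-fold, as did 10 of the 11 members this bright. Of the 1288, 5, Sult2a2 included, had a log2 ratio at least as high as Sult2a2. Over measured probe sets of any brightness, 56 did. Between probe sets of a single gene at this brightness, the SD of the log2 ratio was 0.15 over 230 genes.

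The Sult2a2 value has no second probe set to set beside it. In the RefSeq gene table of GRCm38.p6, Sult2a2 stands in a row of 8 protein-coding Sult2a genes on chromosome 7, in the order Sult2a5, Sult2a2, Sult2a1, Sult2a4, Sult2a3, Sult2a6, Sult2a8 and Sult2a7. The annotation names a probe set for Sult2a2 and for none of the other 7. Sult2a genes are close copies of each other, and probe sequences were not used here, so the signal may hold RNA of several of them. The other gene of the Sult2 family on the array, Sult2b1, which encodes a sulfotransferase of cholesterol and pregnenolone, read 0.8 on both arrays.

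**Figure D2:**
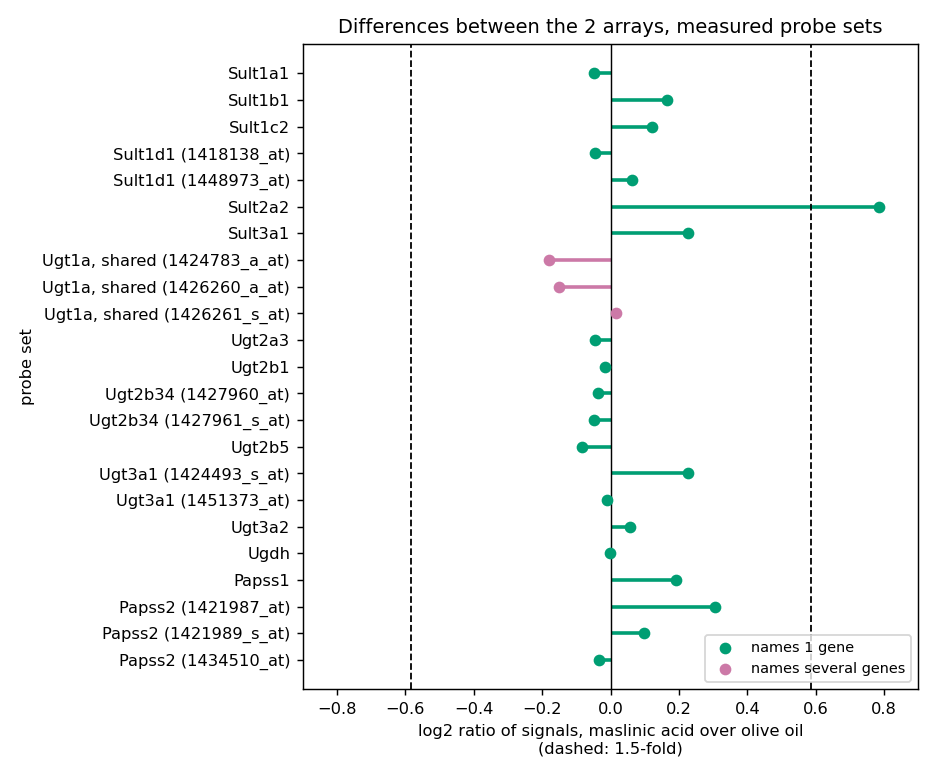
Log2 ratio of signals, MAOO-labelled array over OO-labelled array, for the 20 measured probe sets naming a single gene (green) and the 3 measured Ugt1a probe sets naming several (pink); dashed lines mark 1.5-fold. Sult2a2 at 0.78 lies outside the dashed lines, and the others lie between -0.18 and 0.31.

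Sult3a1, an amine sulfotransferase, was named above with Sult2a as more abundant in females. It read 1994.0 on the OO-labelled array and 2330.8 on the MAOO-labelled array, a log2 ratio of 0.23. That is about as large as the SD between probe sets of a single gene, and it has no second probe set. Its neighbour on chromosome 10, Sult3a2, has no probe set named here.

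In the Sult1 family, which sulfonates phenols, catecholamines, thyroid hormones and oestrogens, the 5 measured probe sets of 4 genes centred on a median log2 ratio of 0.063, and the largest difference was 1.12-fold. Sult1a1, the main phenol sulfotransferase of liver, read 4503.2 on the OO-labelled array and 4355.3 on the other, a log2 ratio of -0.048 that turned to 0.0036 with quantile scaling. Sult1d1, which acts on catecholamines, gave 1748.7 and 1827.0 with one probe set and 687.2 and 666.0 with the other, so its 2 probe sets differed in sign, at 0.063 and -0.045. For both genes the direction thus depended on the scaling or the probe set. Sult1b1, a thyroid hormone sulfotransferase, read 179.2 and 200.8, a log2 ratio of 0.16, and Sult1c2 read 156.4 and 170.0, a log2 ratio of 0.12.

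The remaining sulfotransferases did not reach the minimum. Sult1e1, the oestrogen sulfotransferase, read 24.7 and 20.2, and Sult1c1 read 0.9 and 6.7, all under the floor. Sult5a1 lay closest under the minimum, at 57.1 on the OO-labelled array and 44.9 on the MAOO-labelled array. The measured member closest above it was Papss1, at 115.2 and 131.6. Signals this low are not ranked here.

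Sequence before the annotated start was available for 19 of the 21 genes, from the RefSeq promoter table of GRCm38.p6. Sult2a2 and Ugt3a2 were unmatched. The 250 bases before the annotated start are printed for Sult1a1, Sult3a1 and Ugt2b5, the members with the strongest probe set signal in families Sult1, Sult3 and Ugt2, and for Ugt1a1, the bilirubin enzyme, as 1 of the alternative starts behind the shared Ugt1a signal. Each reads 5′ to 3′ on the strand of its gene, and capitals mark matches on either strand to any of 5 motifs: GTTAAT, a half-site of Hnf1; AGGTCA, a half-site of nuclear receptors such as Car, Pxr and Hnf4a; GCGTG, the core bound by the aryl hydrocarbon receptor; TGACNNNGC, the core bound by Nrf2; and TTCNNNGAA, the palindrome bound by Stat5, which carries growth hormone signals to sex-biased liver genes. No matches overlapped in these 4 windows. The windows lie on the minus strand at chr7:126676419-126676668 for Sult1a1, on the plus strand at chr10:33857472-33857721 for Sult3a1, on the minus strand at chr5:87140341-87140590 for Ugt2b5, and on the plus strand at chr1:88211709-88211958 for Ugt1a1.
Sult1a1: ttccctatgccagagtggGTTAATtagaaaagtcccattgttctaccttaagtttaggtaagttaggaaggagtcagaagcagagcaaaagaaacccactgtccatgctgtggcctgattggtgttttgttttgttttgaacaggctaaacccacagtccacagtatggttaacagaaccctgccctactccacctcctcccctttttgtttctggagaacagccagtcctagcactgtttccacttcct
Sult3a1: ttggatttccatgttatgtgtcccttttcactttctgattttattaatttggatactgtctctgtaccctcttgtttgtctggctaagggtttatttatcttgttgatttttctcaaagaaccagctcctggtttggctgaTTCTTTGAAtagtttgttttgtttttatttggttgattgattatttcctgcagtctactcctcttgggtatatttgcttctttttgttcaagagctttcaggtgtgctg
Ugt2b5: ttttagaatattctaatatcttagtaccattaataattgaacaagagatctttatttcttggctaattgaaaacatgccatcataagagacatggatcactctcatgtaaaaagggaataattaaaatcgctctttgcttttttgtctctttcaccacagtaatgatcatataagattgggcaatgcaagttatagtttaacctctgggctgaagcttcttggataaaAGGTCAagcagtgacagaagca
Ugt1a1: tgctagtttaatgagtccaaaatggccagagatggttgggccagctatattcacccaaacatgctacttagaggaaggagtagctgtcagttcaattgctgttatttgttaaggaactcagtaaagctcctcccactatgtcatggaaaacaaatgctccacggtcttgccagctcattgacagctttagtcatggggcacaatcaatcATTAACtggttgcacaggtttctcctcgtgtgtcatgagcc

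Each of the 4 windows held a single match. Counting the base before the start as -1, the match in Sult1a1 was to the Hnf1 half-site, at -232 to -227, and that in Ugt1a1 was its reverse complement, at -41 to -36. Ugt2b5 held AGGTCA at -22 to -17, and Sult3a1 held the Stat5 palindrome at -109 to -101. That palindrome was in 1 of the 13 measured genes with a window, Sult3a1, and in 0 of the 6 dim genes. Of all 32851 windows of this length, 7.02% hold it. The Hnf1 half-site was in 4 of the 13, Sult1a1, Sult1d1, Ugt2a3 and Ugt3a1, in 0 of the 6 dim genes, and in 6.43% of all windows. The half-site of nuclear receptors was in 3 of 13, in 3 of 6, and in 14.0% of all windows. The aryl hydrocarbon receptor core was in 4 of 13, 1 of 6 and 28.2%, and the Nrf2 core in 1 of 13 (Ugdh), 0 of 6 and 10.2%. Some genes have 2 windows and count where either matches. The shares of all windows count each window by itself, so they and the counts of genes are in unlike units. A match is only a run of letters, and whether it lies in repeat sequence was not checked.

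The Ugt1a locus was read by 3 probe sets that each name 8 genes: Ugt1a1, Ugt1a2, Ugt1a5, Ugt1a6a, Ugt1a6b, Ugt1a7c, Ugt1a9 and Ugt1a10. Ugt1a enzymes are made from separate first exons, each with its own promoter, joined to a set of common exons, so a probe in the common part reads them all. The probe sets read 5587.8 and 4929.8, 7517.5 and 6774.6, and 5070.3 and 5124.0 on the OO-labelled and MAOO-labelled arrays. Their log2 ratios were -0.18, -0.15 and 0.015, so they differed in sign, and the largest difference was 1.13-fold. The levels of single Ugt1a genes, such as that of Ugt1a1, cannot be had from these values. A promoter window was matched for 8 Ugt1a genes, which include Ugt1a8 and leave out Ugt1a6b. Of these, 4 held the Hnf1 half-site (Ugt1a1, Ugt1a6a, Ugt1a9 and Ugt1a10) against 6.43% of all windows, 2 the half-site of nuclear receptors (14.0%), 2 the aryl hydrocarbon receptor core (28.2%), 1 the Stat5 palindrome (7.02%) and 0 the Nrf2 core (10.2%).

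In the Ugt2 families, which glucuronidate steroids, bile acids and drugs, the 5 measured probe sets of 4 genes lay within 1.06-fold. Ugt2b5 read 6310.5 on the OO-labelled array and 5957.0 on the MAOO-labelled array, a log2 ratio of -0.083. Ugt2b34 read 2315.5 and 2257.9 with one probe set and 2881.5 and 2786.1 with the other, log2 ratios of -0.036 and -0.049. Ugt2a3 read 2323.2 and 2251.0, and Ugt2b1 read 2383.7 and 2357.1. All 5 ratios were below 0 at the deposited scaling, as were those of the 9 hepatocyte markers, whose part in this was not tested. With the loess trend on signal removed, the 5 ratios ran from -0.020 (Ugt2a3) to 0.011 (Ugt2b1), so the sign turned for Ugt2b1. One Ugt2b34 probe set came to 0 with quantile scaling.

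Ugt2b37 read 23.4 and 28.8 and Ugt2b38 read 12.8 and 12.0, under the floor on both arrays, as did the probe set that names Ugt2a1 and Ugt2a2, at 7.7 and 17.9. In the gene table these genes share a cluster with Sult1 genes on chromosome 5: Ugt2b34, Ugt2b1, Ugt2b35, Ugt2b36, Ugt2b5, Ugt2b37, Ugt2a3, Ugt2b38, Ugt2a1, Ugt2a2, Sult1b1, Sult1d1 and Sult1e1, with pseudogenes between them. Of the 13, 9 had a probe set of their own and 6 of these were measured. Measured genes had dim neighbours: Ugt2b37 and Ugt2b38, both dim, flank Ugt2a3, and the dim Sult1e1 lies beside Sult1d1. None of the 6 measured genes was 1.5-fold apart between the arrays; the others have no usable value here.

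Ugt3a enzymes use other UDP sugars than UDP-glucuronic acid. Ugt3a2 read 2662.9 on the OO-labelled array and 2771.7 on the MAOO-labelled array, a log2 ratio of 0.058. The 2 probe sets of Ugt3a1 read 478.3 and 559.6, and 568.5 and 564.2. Their log2 ratios of 0.23 and -0.011 differ by 0.24. The SD of 0.23 is that of single probe sets about the mean of their gene. A difference between 2 probe sets spreads more widely than that.

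**Figure D3:**
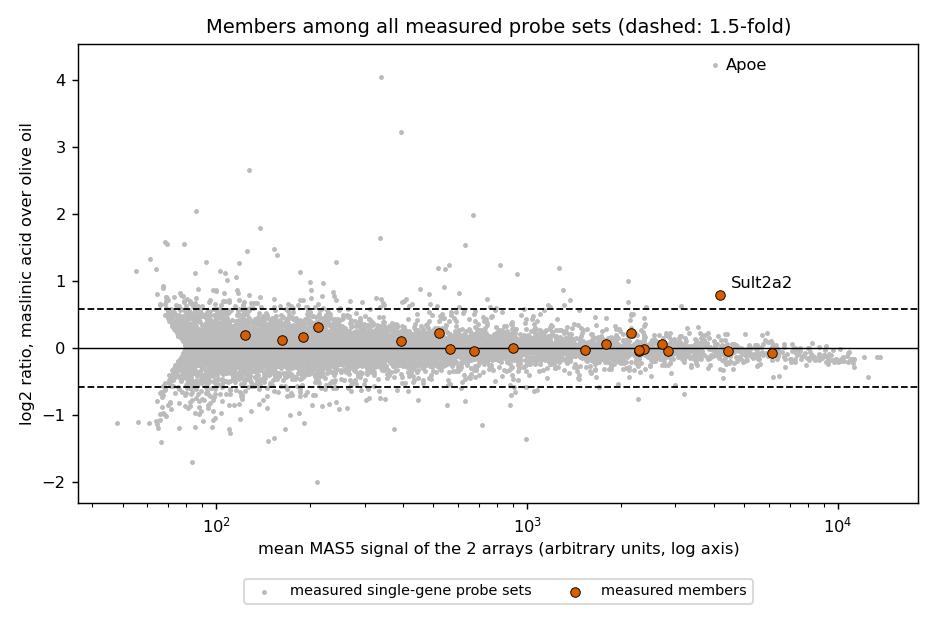
Log2 ratio of signals against the mean signal of the 2 arrays on a log axis, for the 8525 measured probe sets naming a single gene (grey) and the 20 measured members (orange); dashed lines mark 1.5-fold. The members lie along 0 with the exception of Sult2a2, which is among the 12 of 1288 probe sets of mean signal of at least 1000 that lie above the upper dashed line. Apoe, at the top right, is labelled for reference.

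Enzymes that make the donors showed no difference of 1.5-fold. Ugdh, which oxidises UDP-glucose to UDP-glucuronic acid, read 900.2 on the OO-labelled array and 898.7 on the MAOO-labelled array. Papss1 and Papss2 each carry both steps from sulfate to PAPS. Papss1 read 115.2 and 131.6, a log2 ratio of 0.19. Papss2 read 1557.4 and 1521.8 with its brightest probe set, a log2 ratio of -0.033. Its other measured probe sets read 379.7 and 406.4, and 190.3 and 235.3, at 0.098 and 0.31, and another was under the floor at 12.4 and 0.6. The measured probe sets of Papss2 spanned 0.34, the widest gap among the 4 member genes with more than one, where the smallest was 0.012 (Ugt2b34).

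Genes in lists of the same pathway were each represented by their brightest probe set. The lists of donor supply count Ugdh, Papss1 and Papss2 again. By brightest probe set, 1.47% of all 5914 measured genes were at least 1.5-fold higher and 1.61% lower. In the supply of UDP-glucuronic acid, 0 of 6 measured genes reached 1.5-fold, with a median log2 ratio of 0.092. Ugp2, which makes UDP-glucose, read 3417.0 and 3915.3, a log2 ratio of 0.20, although its 5 probe sets ranged from -0.095 to 0.20. Slc35d1, a carrier of UDP-glucuronic acid into the endoplasmic reticulum, lay at 0.18, and Uxs1, which turns UDP-glucuronic acid into UDP-xylose, read 103.5 and 71.0, a log2 ratio of -0.54. In the supply and turnover of PAPS and sulfate, 0 of 10 reached 1.5-fold, with a median of 0.0016. Bpnt1, which breaks down the by-product PAP, read 406.1 and 486.5, a log2 ratio of 0.26, and the Golgi PAPS carrier gene Slc35b2 lay at -0.16.

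Receptors and factors that control conjugation genes reached 1.5-fold in 0 of 13 measured cases, and their median log2 ratio was 0.045. Ppara, the fatty acid receptor, read 1541.4 and 1186.8, a log2 ratio of -0.38, and the oxysterol receptor gene Nr1h3 read 331.8 and 406.9, at 0.29. Hnf4a, a main hepatocyte factor, lay at -0.22 on its brightest probe set, but its 3 probe sets ranged up to 0.64. Values of 3 xenobiotic sensors are added after they were seen: Nr1i3, which encodes Car, lay at 0.045, Ahr at 0.024, and Nr1i2, which encodes Pxr, at -0.0099 on its brightest probe set and 0.50 on another. Of 13 measured targets of Car and Pxr, 1 was at least 1.5-fold higher, Cyp2b10, at 21.4 and 117.1 or at least 2.93-fold, and 0 were lower, with a median of -0.017. Cyp3a11 read 10766.8 and 9275.7, a log2 ratio of -0.22, and Cyp3a13 lay at 0.36.

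Carriers that take up or export conjugates had a median log2 ratio of -0.023, with 0 of 8 measured genes at 1.5-fold. Abcc2, the canalicular exporter of glucuronides, read 730.0 and 591.8, a log2 ratio of -0.30. Slc22a7, an organic anion carrier, read 82.7 and 116.5, at 0.49, close to the minimum signal. Slco1a4 lay at 0.14 and Slco1b2, which takes up bilirubin and bile acids, at -0.10, although the 3 probe sets of Slco1b2 ranged from -0.10 to 0.23. Hydrolases that can undo or accompany conjugation, namely sulfatases, β-glucuronidase and carboxylesterases, had a median of -0.032, with 0 of 9 at 1.5-fold. In that list the arylsulfatase gene Arsa lay at -0.27, and the carboxylesterase gene Ces1d at 0.31 on its brightest probe set, with 3 probe sets from -0.046 to 1.98.

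**Figure D4:**
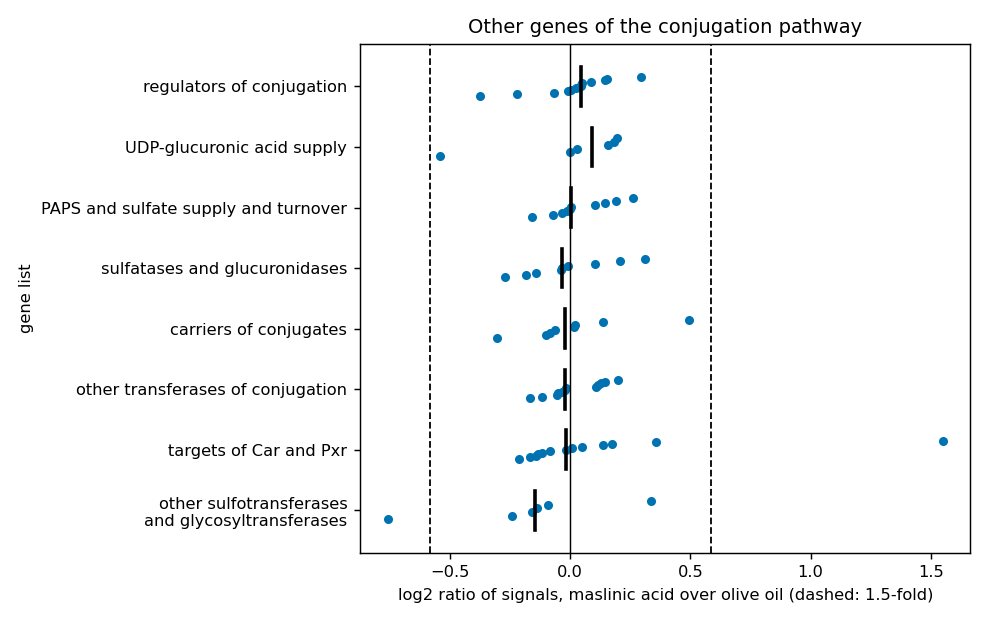
Log2 ratio of signals, MAOO-labelled array over OO-labelled array, for each measured gene (blue points) of 8 lists of the conjugation pathway, with the list's median as a black bar and 1.5-fold as dashed lines. The medians lie between -0.15 and 0.092, and the points outside the dashed lines are Cyp2b10, a lower bound since its signal on the OO-labelled array lay under the floor, and Ugcg.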

How the data were processed

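The authors deposited linear intensity values, 1 for each probe set of an array, which were made, per the submitters' processing notes, with MAS5. The sources used here give neither its version nor its settings. Both arrays had a 2% trimmed mean of about 200.0, so the deposited scaling was kept, and medians were 44.4 (olive oil) and 44.6 (maslinic acid). Signals under 40 were set to 40, which 48.4% and 48.2% of probe sets were, and a probe set counted as measured at 80 on at least 1 array. Precision is limited by the number of arrays. Genes were named from the platform annotation: 20393 probe sets name 1 gene, 691 several, and 1606 are unnamed here. The 21 member genes were all found by Entrez number in a gene table of GRCm38.p6. Sequences are RefSeq's. No statistical test was possible with 1 array per diet.

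Members and gene lists were chosen with earlier results of these data known. Every measured member may be named. Of other lists, up to 4 measured genes with the largest absolute log2 ratio are named, by their brightest probe set on average; the added Nr1i3, Ahr and Nr1i2 fall outside this rule. Besides the hepatocyte and pathway lists, there were 11 measured markers of Kupffer cells and macrophages (median log2 ratio 0.027). Of these, 6 were higher and 5 lower on the MAOO-labelled array, and 1 was at least 1.5-fold lower, Marco, at -2.0. Stellate cells had 6 (0.24), endothelial cells 7 (-0.12) and lymphocytes 2 (0.70). The 2 of lymphocytes went opposite ways, Ptprc at -0.14 and Ighm at 1.54 on its brightest probe set. The 3 probe sets of Ighm ranged from 0.49 to 1.54. Erythroid cells (0.68), enterocytes (-0.092), exocrine pancreas (-0.54), adipocytes (0.43) and cholangiocytes (-0.26) had 1 each. The steps were tested on simulated data, with planted changes larger than that of Sult2a2 and an assumed level of noise. That test cannot tell how far arrays of the same diet would differ. Python 3.11.15, pandas 2.3.3, NumPy 2.4.6, statsmodels 0.14.6 and matplotlib 3.10.9 were used.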

Additional observations from a re-analysis of the deposited data

How the results depend on the processing

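The 12 alternatives were equal medians, quantile scaling, removal of a loess trend on signal (span 0.3), floors of 20 and 80, no minimum, a minimum of 160, a minimum of 80 applied to mean signals, dropping probe sets that end in _x_at or _s_at, adding probe sets of several genes, 1 probe set per gene, and the mean of a gene's probe sets. Under each of them 1 member was at least 1.5-fold higher, Sult2a2, and 0 were at least 1.5-fold lower. Sult2a2 ranged from 1.71-fold to 1.79-fold. Only the scalings could move this value, since Sult2a2 has a single probe set and its signals are far above every floor and minimum. The median log2 ratio of the members ranged from -0.0024 to 0.058, so its sign was not fixed. The even split into higher and lower members was not fixed either. It became 12 higher and 8 lower with the loess trend removed, and 11 and 8 with quantile scaling. Of 236 values of single members under the alternatives, 234 moved by less than 0.23, the SD between probe sets of 1 gene. The other 2 came from using 1 probe set per gene, for Papss2 (0.31 to -0.033) and Ugt3a1 (0.23 to -0.011). Many of the 236 could not move, since floors, minimums and added or dropped probe sets leave a measured member's own value as it is. Only the scalings and the per-gene choices could change a value. The sign turned with a scaling for 2 member probe sets, those of Sult1a1 and Ugt2b1, and for 6 others where the value of another probe set of the gene, or a mean over them, took their place. No paired analysis was possible because there is 1 array per diet, and for the same reason no array could be left out. The SD between probe sets is technical and holds no variation between mice, so no difference of any size, that of Sult2a2 included, is shown to belong to the diets.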

Other observations

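Transferases outside the families above gave further values. Other enzymes of conjugation had a median log2 ratio of -0.020 over 12 measured genes, 5 higher and 7 lower on the MAOO-labelled array, with 0 at least 1.5-fold apart. Tpmt, the thiopurine methyltransferase gene, read 135.4 and 155.4 on the OO-labelled and MAOO-labelled arrays, a log2 ratio of 0.20. The medium-chain acyl-CoA synthetase gene Acsm3 lay at -0.17 and the N-acetyltransferase gene Nat2 at 0.15. Baat, which joins bile acids to taurine or glycine, lay at 0.13 on its brightest probe set and 0.38 on the other.

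Sulfotransferases of the Golgi modify heparan sulfate and tyrosines of proteins. With glycosyltransferases of lipids, they had a median of -0.15 over 6 measured genes of 17 on the array. The 17 include Sult4a1, of a further Sult family, which read 0.5 and 0.7. Of the 6, 1 was at least 1.5-fold lower and 0 were higher: Ugcg, which encodes the glucosylceramide synthase, read 112.9 and 66.7, a log2 ratio of -0.76, close to the minimum signal. Ndst2, a heparan sulfate N-sulfotransferase gene, read 88.6 and 111.9, a log2 ratio of 0.34. Hs6st1 lay at -0.24 and Tpst1 at -0.16.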
